A study of Mus musculus with 4 samples.

Results

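The genes described here encode the fibrillar collagens and the other proteins of the interstitial matrix, the fibrous material between cells in connective tissue. They were chosen by symbol from a list of 33 genes, and all 33 were found among the 23284 gene symbols of the data. Messenger RNA was measured by RNA sequencing in stromal cells sorted from the whole colon of mice. Living cells were kept by exclusion of the dye 7AAD. They had to carry podoplanin, found on the surface of fibroblasts and of lymphatic vessels, and to lack CD45, CD31 and EpCAM, which mark leukocytes, endothelium and epithelium. Each of 4 groups has 1 library: wild type and Rag2 knockout (Rag2 KO) of the strain BALB/c, and wild type and IL-10 knockout (IL-10 KO) of the strain C57BL/6J. Rag2 is needed for T and B cells to mature, and IL-10 is a cytokine that restrains intestinal inflammation. No treatment is named for any group. The age of the animals, the number of animals per library and the make of each deleted allele were not given in the sources used here.

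Fibrillar collagens are made as procollagen chains that fold into triple helices, are trimmed outside the cell and assemble into fibrils. Other collagens and small proteoglycans attach to the fibril surface, lysyl oxidases crosslink the fibrils, and elastin laid on fibrillin microfibrils gives elastic recoil. In the colon, fibroblasts and smooth muscle cells make most of this matrix, and excess fibrillar matrix is the hallmark of intestinal fibrosis.

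Levels are FPKM, fragments mapped to a gene scaled to transcript length and to library size, as computed by the authors. How library size was normalized was not given in the sources used here. A log2 ratio is the difference of log2(FPKM + 1) between a pair of libraries, which understates the change of low genes. With 1 library per group no test is possible and no p-value is given, so "higher" and "lower" describe these libraries only. The depth, estimated from the steps between the lowest values, came to 9400000 (BALB/c wild type), 9200000 (Rag2 KO), 8200000 (C57BL/6J wild type) and 7900000 (IL-10 KO) fragments. At that depth the 95% counting interval of a log2 ratio reached at most 0.12 on either side for every member except Hapln1, so that nearly all differences below exceed counting error. Counting error does not include the variation between animals, which these data do not measure.

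Several facts of the libraries bear on the comparisons. Transcripts of both Xist, which coats the silenced X, and the Y-linked gene Ddx3y were present in C57BL/6J wild type (23.02 and 16.9 FPKM). IL-10 KO had Xist at 44.9 and Ddx3y at 0.0269 FPKM, and in the BALB/c libraries Xist was at most 0.105 FPKM. In those libraries Ddx3y was at 36.3 (wild type) and 31.5 FPKM (Rag2 KO). Sex therefore cannot be told apart from genotype between the C57BL/6J libraries, nor from strain between the wild types. Il10 had 129.9 FPKM in the library labelled IL-10 KO and 3.33 in its wild type, and Rag2 had 0.712 FPKM in the library labelled Rag2 KO and was listed at 0 in the other 3. Both values run against the labels, and the values per gene do not show which exons were read. Defining markers of fibroblasts were high everywhere, with the mesenchymal filament gene Vim between 1308 and 1450 FPKM and Pdgfra between 102 and 149.2 FPKM.

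The matrix genes were among the most abundant transcripts of these cells. Their summed level was 21386 FPKM in BALB/c wild type, 19355 in Rag2 KO, 23890 in C57BL/6J wild type and 19864 in IL-10 KO. After leaving out rows of small RNAs these sums were 5.56%, 4.56%, 5.93% and 4.48% of the library's summed FPKM in the same order. Both knockout libraries thus had a smaller share than either wild type. The share is of length-scaled levels and not of sequenced fragments. Of the 33 genes, 13 ranked among the 100 most abundant in each wild type and 9 in each knockout. The median rank was 220 and 231 in the wild types, 272 in Rag2 KO and 336 in IL-10 KO. Over the 4 libraries, 20 of the 33 members had less than a 2-fold range between their lowest and highest library. The same share over all genes was not computed.

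**Figure D1:**
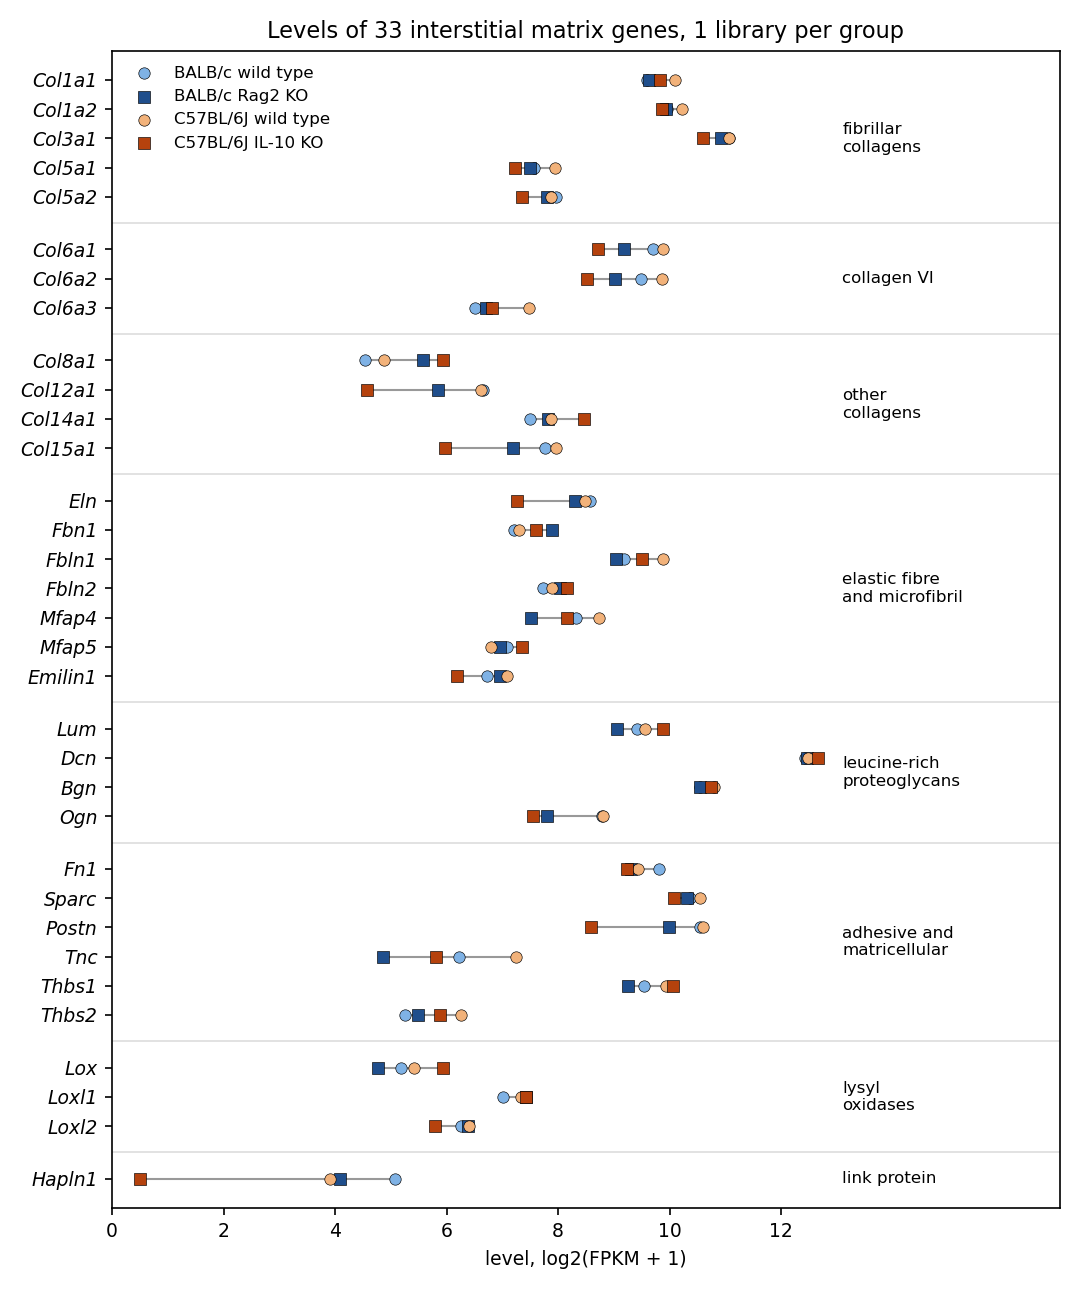
Level of each of the 33 matrix genes in log2(FPKM + 1) on the horizontal axis, grouped by role, with 1 point per library and a line from the lowest to the highest library. Dcn is the highest gene in all 4 libraries, and the widest range belongs to Hapln1, which is near 0 in IL-10 KO alone.

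Against C57BL/6J wild type, the IL-10 KO library had lower levels of the collagen VI genes Col6a1 and Col6a2, of the genes of collagens XII and XV, elastin, osteoglycin, periostin and tenascin-C, and of the link protein gene Hapln1. The fibrillar collagen genes and Col6a3 differed by less than 2-fold. Of the 33 members, 9 were at least 2-fold lower (27.3%), against 3.82% of all 12790 genes compared, those that reached an FPKM of 1 in at least 1 of the libraries. Only Col8a1 was at least 2-fold higher (3.03%), against 10.1% of all genes. The median log2 ratio of the members was -0.46 and that of all genes was 0.00 (-0.0018 before rounding). With a reference of BALB/c wild type, which differs in strain as well, 6 members were at least 2-fold lower (18.2%; 4.30% of all genes) and the median was -0.17.

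The Rag2 KO library stood closer to its wild type. Against BALB/c wild type, Tnc was the only member at least 2-fold lower (3.03%; 2.03% of all genes) and Col8a1 the only member at least 2-fold higher (3.03%; 4.42% of all genes), shares near the background in both directions. Ogn lay just short of the threshold, at a log2 ratio of -0.999. The median log2 ratio was -0.14, against -0.004 over all 12336 genes. In this comparison 22 members were below 0 (66.7%; 50.5% of all genes) and 11 above. The knockout comparisons share no library, and 18 of the 33 members (54.5%) were below 0 in both of them, against 34.3% of all genes. Another 6 were above 0 in both: Col8a1, Col14a1, Fbn1, Fbln2, Dcn and Loxl1. The share of all genes above 0 in both was not computed.

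**Figure D2:**
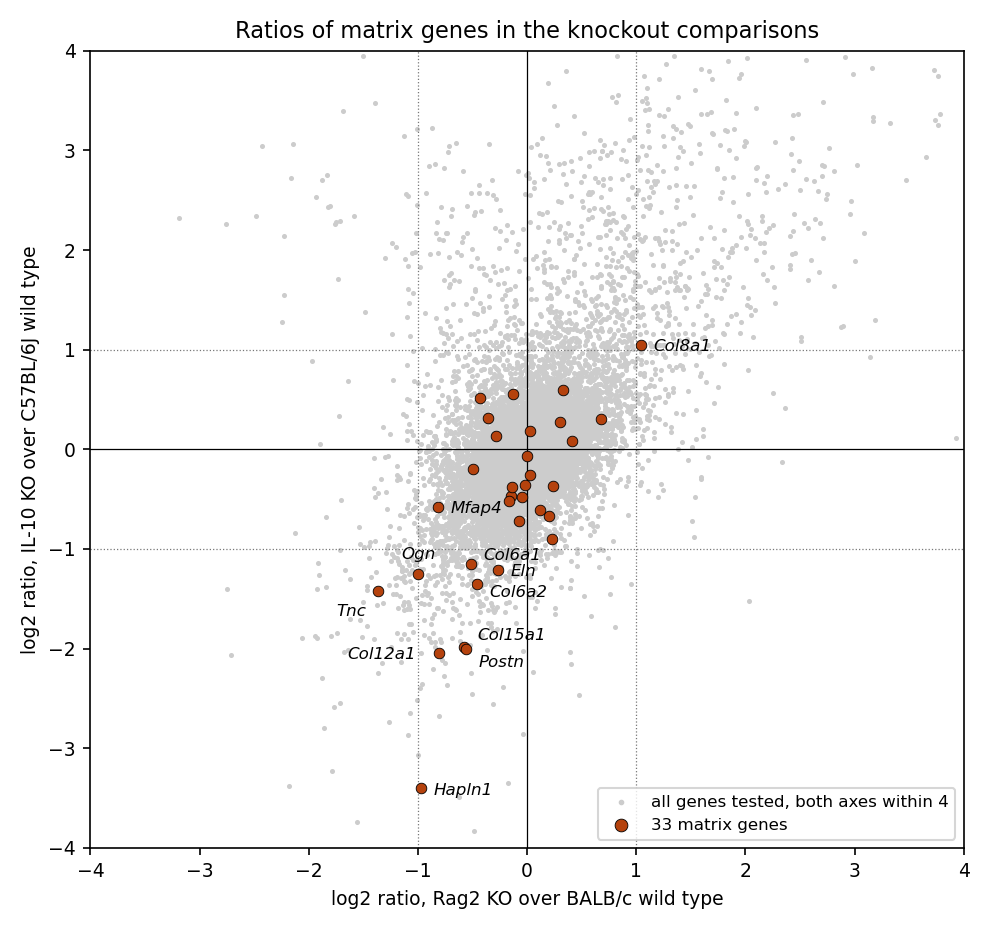
Log2 ratio of Rag2 KO over BALB/c wild type (horizontal) against that of IL-10 KO over C57BL/6J wild type (vertical), with the 33 matrix genes in colour over all genes tested whose ratios lie within 4 of 0 (grey). Dotted lines mark a 2-fold difference, and 9 members lie below the lower horizontal line while Tnc alone lies beyond the left vertical line.

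The promoters of 4 members are printed here because these genes stand for the main patterns: Col6a2 and Postn were lower in IL-10 KO, Tnc was lower in both knockouts, and Col8a1 was higher in both. Each run is the 250 bases before the start site, 5′ to 3′ on the strand of the gene, from RefSeq in GRCm38.p6, the build that mm10 names. The Postn window lies inside the RefSeq span of that gene (54359267 to 54391041), which begins upstream of this start site. The site itself lies 2 bases from a protein-coding GENCODE transcript start. Capitals mark the motifs searched on both strands: the TATA box TATAAA, the CCAAT box CCAAT, the GC box GGGCGG, the AP-1 site TGANTCA and the SMAD box CAGAC, a short sequence bound by the SMAD factors of TGF-beta signalling.
Col6a2 (chr10:76623631-76623880, minus strand): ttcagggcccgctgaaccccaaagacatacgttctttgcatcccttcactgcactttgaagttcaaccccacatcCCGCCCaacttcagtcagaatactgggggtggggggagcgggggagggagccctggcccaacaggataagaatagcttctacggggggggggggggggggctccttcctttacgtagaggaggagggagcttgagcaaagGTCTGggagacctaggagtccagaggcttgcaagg
Postn (chr3:54360857-54361106, plus strand): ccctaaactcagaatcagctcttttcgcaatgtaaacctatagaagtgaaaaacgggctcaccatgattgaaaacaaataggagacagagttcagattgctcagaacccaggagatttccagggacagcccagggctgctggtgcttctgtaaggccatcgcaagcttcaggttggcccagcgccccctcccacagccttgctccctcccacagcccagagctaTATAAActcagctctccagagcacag
Tnc (chr4:64047016-64047265, minus strand): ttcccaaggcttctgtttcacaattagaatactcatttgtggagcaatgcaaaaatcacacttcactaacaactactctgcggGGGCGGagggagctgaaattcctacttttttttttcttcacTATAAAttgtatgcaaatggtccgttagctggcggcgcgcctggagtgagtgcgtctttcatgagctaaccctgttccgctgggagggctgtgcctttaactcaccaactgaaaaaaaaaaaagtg
Col8a1 (chr16:57754738-57754987, minus strand): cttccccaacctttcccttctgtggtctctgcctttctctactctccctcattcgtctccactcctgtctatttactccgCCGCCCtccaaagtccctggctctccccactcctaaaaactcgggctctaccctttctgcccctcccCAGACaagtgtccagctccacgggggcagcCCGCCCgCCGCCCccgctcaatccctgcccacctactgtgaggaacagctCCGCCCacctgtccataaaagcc

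The window of Postn held a TATA box that begins 26 bases before the start site, and that of Tnc held a TATA box 126 bases and a GC box 167 bases before it. The Col8a1 window had 4 GC boxes and 1 SMAD box, and the Col6a2 window had 1 of each. Promoter entries were found for 19 members, of which 10 had a start site within 10 bases of a protein-coding GENCODE transcript start and were searched. The TATA box was in 3 of these 10 and in 12.4% of all 32851 promoter entries, the GC box in 5 and 32.7%, and the SMAD box in 7 and 42.2%. The CCAAT box (33.8% of all entries) and the AP-1 site (6.75%) were in 0 of the 10.

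The fibrillar collagens form the load-bearing fibrils, with collagens I and III as the bulk and collagen V as a minor chain that sets fibril diameter. Col1a1, the first chain of collagen I, stood at 772.6 FPKM in BALB/c wild type, 787.5 in Rag2 KO, 1089 in C57BL/6J wild type and 913 in IL-10 KO. Col3a1 (chromosome 1, 45311538 to 45349706), the collagen III gene, had 2150 FPKM in each wild type, 1941 in Rag2 KO and 1558 in IL-10 KO. C57BL/6J wild type was thus the highest library for Col1a1, whereas the wild types were level for Col3a1 and IL-10 KO was the lowest. All 5 fibrillar members were lower in IL-10 KO than in C57BL/6J wild type, with log2 ratios between -0.72 (Col5a1) and -0.25 (Col1a1), and 0 of the 5 reached 2-fold. In the Rag2 comparison their ratios lay between -0.17 (Col5a2) and 0.03 (Col1a1).

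Levels of collagen genes in a library can be set side by side because FPKM are per length. Col1a1 was at 0.782 times the level of Col1a2 in BALB/c wild type, 0.808 in Rag2 KO, 0.913 in C57BL/6J wild type and 0.977 in IL-10 KO. For Col3a1 over Col1a1, genes of different collagens, the ratio was 2.78 in BALB/c wild type and 2.46 in Rag2 KO. It was 1.97 in C57BL/6J wild type and 1.71 in IL-10 KO. Both ratios thus separated the strains, and within each strain the knockout had relatively more Col1a1. Collagen I protein holds more of the first chain than of the second, a proportion that these transcript levels do not show.

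Collagen VI forms beaded microfilaments around cells from chains encoded by Col6a1, Col6a2 and Col6a3. Col6a1 (chromosome 10, 76708792 to 76726044) stood at 830 FPKM in BALB/c wild type, 581 in Rag2 KO, 937 in C57BL/6J wild type and 421 in IL-10 KO. Its neighbour on the chromosome, Col6a2 (76595756 to 76623630), had 720, 522, 935 and 365 FPKM in the same order. Both genes were higher in the wild types than in either knockout, with IL-10 KO the lowest. Between IL-10 KO and its wild type their log2 ratios were -1.15 and -1.36, and between Rag2 KO and its wild type -0.51 and -0.46. Col6a3, on chromosome 1, stood at 90.0 FPKM in BALB/c wild type, 104 in Rag2 KO, 178 in C57BL/6J wild type and 112 in IL-10 KO. Unlike its partners, it was lowest in BALB/c wild type and showed a ratio of 0.21 in the Rag2 comparison. Col6a1 stood between 1.002 and 1.15 times the level of Col6a2 in all 4 libraries, but its level relative to Col6a3 was 9.22 in BALB/c wild type, 5.59 in Rag2 KO, 5.27 in C57BL/6J wild type and 3.77 in IL-10 KO.

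Among the other collagens, XII and XIV are bound to fibril surfaces, XV lies at the border of basement membranes and fibrils, and VIII forms short-chain networks in vessel walls and remodelling tissue. Col12a1 (chromosome 9, 79598987 to 79721141) stood at 99.6 FPKM in BALB/c wild type, 56.6 in Rag2 KO, 96.8 in C57BL/6J wild type and 22.8 in IL-10 KO. Col15a1 (chromosome 4, 47207655 to 47313167) had 216, 145, 248.1 and 62.1 FPKM in the same order. In both genes the wild types were close, Rag2 KO was in between and IL-10 KO was about 4-fold below C57BL/6J wild type, at log2 ratios of -2.04 and -1.98. Col14a1 had 180.1, 226, 234 and 354 FPKM, so that the other fibril-associated collagen was highest in IL-10 KO, at a ratio of 0.59. Col8a1 (chromosome 16, 57624256 to 57754737) stood at 22.3 FPKM in BALB/c wild type, 47.0 in Rag2 KO, 28.4 in C57BL/6J wild type and 59.9 in IL-10 KO. It was the member highest above wild type in both knockouts, with log2 ratios of 1.04 (Rag2) and 1.05 (IL-10), which is just past 2-fold, and its 95% counting intervals without a pseudocount ran from 0.97 to 1.18 in each comparison. Scaled to the FPKM sum without small RNA rows, its ratios were 0.92 (Rag2) and 0.93 (IL-10), short of 2-fold.

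Elastic fibres consist of an elastin core on fibrillin microfibrils, with fibulins, microfibril-associated proteins and EMILIN-1 as accessory parts. Eln (chromosome 5, 134702595 to 134747368), which encodes elastin, stood at 380.1 FPKM in BALB/c wild type, 316 in Rag2 KO, 356 in C57BL/6J wild type and 153 in IL-10 KO. Only IL-10 KO stood apart, at a log2 ratio of -1.21. Fbn1, the fibrillin gene, had 146, 235, 156 and 193 FPKM in the same order and was higher in both knockouts (0.68 for Rag2 and 0.31 for IL-10). The core and the scaffold of the fibre thus had ratios of opposite sign in each knockout comparison. Emilin1 had 104, 123, 135 and 72.0 FPKM, with a ratio of -0.90 for IL-10 KO and 0.23 for Rag2 KO. Mfap4 had 320.5, 182, 424 and 284.5 FPKM and was lower in both knockouts (-0.82 for Rag2, -0.57 for IL-10). Fbln1, Fbln2 and Mfap5 had ratios between -0.38 and 0.55 in the knockout comparisons.

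The small leucine-rich proteoglycans bind collagen and set fibril spacing. Dcn, which encodes decorin, stood at 5544 FPKM in BALB/c wild type, 5651 in Rag2 KO, 5738 in C57BL/6J wild type and 6520 in IL-10 KO, and ranked 2 in both wild types and IL-10 KO and 3 in Rag2 KO among all genes. Bgn, the biglycan gene, lay between 1493 and 1789 FPKM. These abundant members were steady, with a highest library at most 1.198 times the lowest. Ogn (chromosome 13, 49608015 to 49624501), the osteoglycin gene, stood at 444 FPKM in BALB/c wild type, 221 in Rag2 KO, 446 in C57BL/6J wild type and 187 in IL-10 KO. The wild types were level and both knockouts lower, with log2 ratios of -0.999 (Rag2) and -1.25 (IL-10). Lum, the lumican gene beside Dcn on chromosome 10, had 683, 533, 753 and 939 FPKM and went opposite ways, at -0.36 in the Rag2 and 0.32 in the IL-10 comparison.

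Adhesive and matricellular proteins link cells to the fibres or modulate that link. Postn (chromosome 3, 54359267 to 54391041), which encodes periostin, a protein that binds collagen and promotes crosslinking, stood at 1492 FPKM in BALB/c wild type, 1012 in Rag2 KO, 1544 in C57BL/6J wild type and 385 in IL-10 KO. It ranked 20th in both wild types, 54th in Rag2 KO and 160th in IL-10 KO. Tnc (chromosome 4, 63959785 to 64047015), the tenascin-C gene, had 73.7, 27.9, 150.3 and 55.4 FPKM in the same order. Each knockout was lower than its own wild type by a similar ratio (-1.37 for Rag2, -1.43 for IL-10), but the wild types themselves differed, at -1.02 for BALB/c against C57BL/6J. Fn1, the fibronectin gene, had 893, 635, 687 and 601 FPKM, with ratios of -0.49 (Rag2) and -0.19 (IL-10). Sparc, which encodes a collagen-binding protein needed for procollagen processing, had 1323, 1278, 1500 (1500.5 before rounding) and 1077 FPKM, with ratios of -0.05 and -0.48. Thbs1 and Thbs2, which encode thrombospondins, lay between 610 and 1066 FPKM and between 37.05 and 75.6 FPKM, with knockout ratios between -0.37 and 0.23.

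Lysyl oxidases oxidise lysines so that collagen and elastin crosslink. Lox stood at 35.5 FPKM in BALB/c wild type, 26.2 in Rag2 KO, 41.7 in C57BL/6J wild type and 60.3 in IL-10 KO. Loxl2 had 75.6, 82.2, 83.6 and 54.4 FPKM in the same order. The level of Loxl2 was 2.13, 3.14 and 2.003 times that of Lox in the first 3 of these libraries and 0.902 times in IL-10 KO, where Lox was highest and Loxl2 lowest. Loxl1, an enzyme tied to elastic fibres, stood at 129 FPKM in BALB/c wild type and 161 to 172 FPKM in the other libraries.

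Hapln1 (chromosome 13, 89540529 to 89611832), which encodes the link protein that fixes hyaluronan to proteoglycans, stood at 32.6 FPKM in BALB/c wild type, 16.1 in Rag2 KO, 13.99 in C57BL/6J wild type and 0.417 in IL-10 KO. Its range over the libraries was 78.1-fold, the widest of the members. Its log2 ratio was -3.40 for IL-10 KO and -0.97 for Rag2 KO. The IL-10 KO value stands for about 18 fragments. Without the pseudocount it was 33.5-fold below C57BL/6J wild type, with a 95% counting interval of 21.5-fold to 58.3-fold.

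**Figure D3:**
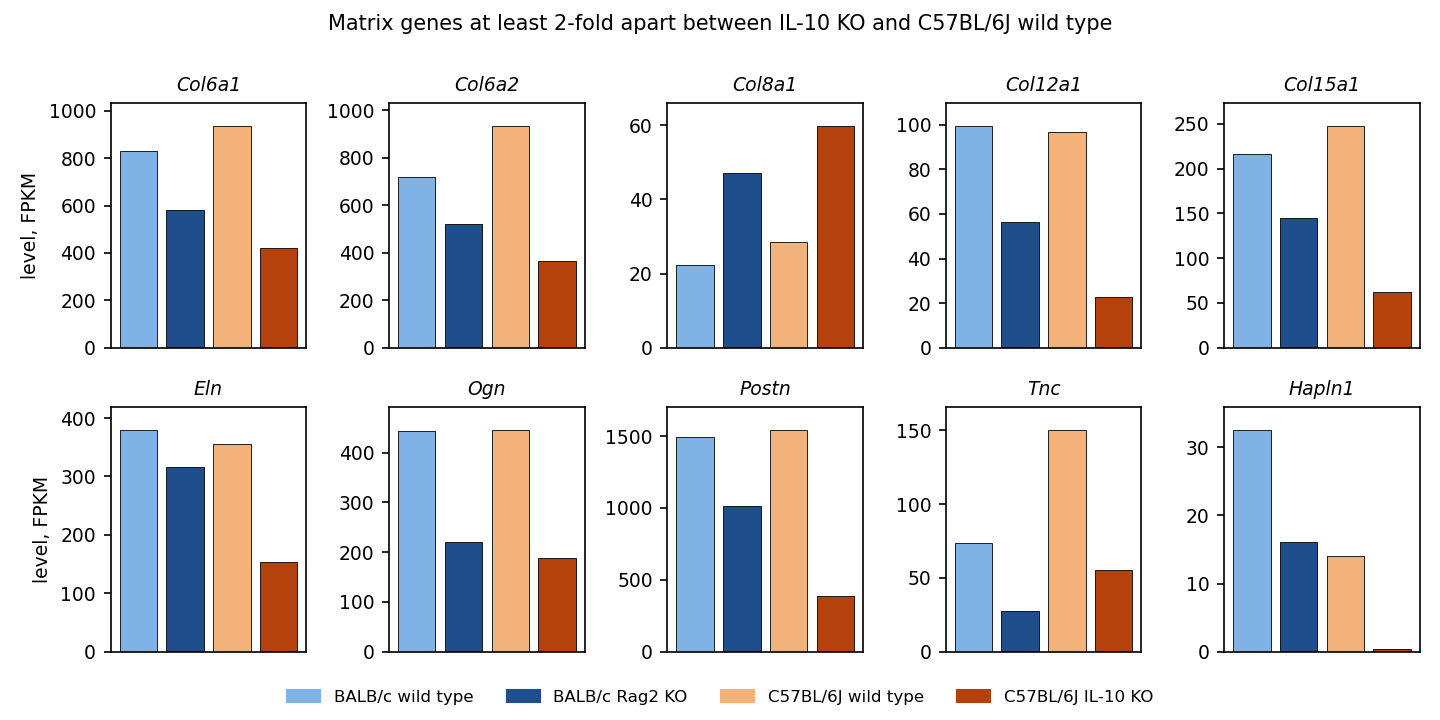
FPKM of the 10 members at least 2-fold apart between IL-10 KO and C57BL/6J wild type, with 1 bar per library and axes from 0. Col8a1 is the only gene with both knockouts above both wild types, and Col12a1, Col15a1 and Postn show level wild types with IL-10 KO about 4-fold lower.

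Of the genes lower in IL-10 KO, 6, namely Col12a1, Col15a1, Eln, Ogn, Postn and Hapln1, were at least 2-fold below both wild types, where 2.26% of all genes were. Col6a1, Col6a2 and Tnc were at least 2-fold below C57BL/6J wild type only. In Rag2 KO, Tnc was at least 2-fold below both wild types, as were 0.849% of all genes. IL-10 KO was the lowest of the 4 libraries for 16 members, BALB/c wild type for 9, Rag2 KO for 7 and C57BL/6J wild type for 1. C57BL/6J wild type was the highest for 17. How often each library was lowest or highest over all genes was not computed, so these counts have no background beside them.

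To set the knockouts side by side, each gene's log2 ratio for Rag2 KO was taken from its ratio for IL-10 KO. The difference was at or below -1 for 5 members (15.2%; 2.29% of all genes): Hapln1 (-2.43), Postn (-1.44), Col15a1 (-1.41), Col12a1 (-1.24) and Emilin1 (-1.13). For 0 members was it at or above 1, as it was for 5.90% of all genes. The largest positive values were those of Lox (0.95), Mfap5 (0.68) and Lum (0.68). Since the knockout comparisons differ in gene, strain and the sex-linked transcripts above, these cannot be told apart in the difference, and it has no replicate error.

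The wild types were compared because the knockouts were made in different strains. Most members were slightly lower in BALB/c, with 26 of 33 below 0 (78.8%; 49.3% of all genes) and a median log2 ratio of -0.20 (0.004 over all genes). Thbs2 (-1.01) and Tnc (-1.02) were at least 2-fold lower (6.06% of the members; 2.17% of all genes). Hapln1 (1.16) was at least 2-fold higher (3.03%; 1.81% of all genes). With a pseudocount of 5 all 3 fell short of 2-fold (Thbs2 -0.94, Tnc -0.98, Hapln1 0.985), as did Thbs2 and Tnc (both -0.96) when scaled without small RNA rows. Col6a3 followed at -0.98, the nearest to the threshold. This comparison shares a library with each knockout comparison.

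Genes whose products modify, chaperone and trim procollagen were taken from a list. Of 24 measured genes of collagen maturation, 1 was at least 2-fold higher and 1 lower in each knockout comparison, with medians of -0.11 (IL-10) and 0.14 (Rag2). The shares of all genes higher and lower were 10.1% and 3.82% (IL-10) and 4.42% and 2.03% (Rag2). Leprel1, a prolyl 3-hydroxylase gene, stood at 10.5 FPKM in BALB/c wild type, 2.32 in Rag2 KO, 8.46 in C57BL/6J wild type and 1.58 in IL-10 KO, so it was lower in both knockouts. P4ha3, which encodes a prolyl 4-hydroxylase subunit, had 2.19, 4.41, 1.12 and 9.29 FPKM. Serpinh1, the gene of the procollagen chaperone HSP47, stood at 339 FPKM in BALB/c wild type and 732 to 857 FPKM in the other libraries. Adamts14, a procollagen N-proteinase gene, had ratios of -0.98 (IL-10) and -0.12 (Rag2).

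Another list holds 43 further matrix genes. In the IL-10 comparison 7 of 35 measured genes were lower by 2-fold or more and 2 higher (median -0.53), and in the Rag2 comparison 5 of 36 were lower and 1 higher (median -0.29). Over all genes 3.82% were lower and 10.1% higher in the IL-10 comparison, and 2.03% and 4.42% in the Rag2 comparison. Col6a5, another collagen VI chain gene, stood at 33.8 FPKM in BALB/c wild type, 27.07 in Rag2 KO, 16.4 in C57BL/6J wild type and 1.95 in IL-10 KO. Aspn, the asporin gene, had 211, 80.5, 201 and 85.3 FPKM in the same order, lower in both knockouts like Ogn. Fbln7, a fibulin gene, had 17.4, 7.06, 20.7 and 5.02 FPKM. Vcan, which encodes the hyaluronan-binding proteoglycan versican, had 38.7, 102, 55.2 and 55.3 FPKM and was higher in Rag2 KO alone.

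Matrix receptors and TGF-beta signalling genes were mostly within 2-fold. Of 19 measured receptor genes, 1 was at least 2-fold lower and 0 higher in IL-10 KO, and of 18, 1 was lower and 1 higher in Rag2 KO. The lower gene was Itga8, an integrin subunit gene, with 6.62 FPKM in BALB/c wild type, 1.04 in Rag2 KO, 3.08 in C57BL/6J wild type and 0.705 in IL-10 KO. Sdc1, which encodes syndecan-1, had 24.8, 78.04, 25.7 and 29.8 FPKM. Sdc4 and Itgb3 had ratios of 0.98 and -0.81 in the Rag2 comparison. TGF-beta, a growth factor that induces fibrillar collagen, has its ligands, receptors and SMAD genes in a list of 14. Of these, Tgif1, the gene of a repressor of SMAD activity, was at least 2-fold higher in IL-10 KO (52.9 against 24.1 FPKM) and 0 others reached 2-fold in either comparison. Tgfb1 had 34.3, 36.5, 27.8 and 48.1 FPKM, Tgfbr2 had 153, 200.1, 147 and 268 FPKM, and Tgfb3 had 35.6, 30.5, 33.9 and 21.2 FPKM.

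Markers of cell types differed between the libraries in both directions, and some lists hardly differed. The 10 smooth muscle markers summed to 1007 FPKM in BALB/c wild type, 495 in Rag2 KO, 906 in C57BL/6J wild type and 388 in IL-10 KO, and 8 (IL-10) and 6 (Rag2) of them were at least 2-fold lower. The 8 markers of subepithelial fibroblasts high in PDGFRA summed to 398, 226, 429.7 and 118 FPKM, with 7 and 3 lower. For both lists, as for Postn, Col12a1 and Col15a1, IL-10 KO was lowest and Rag2 KO next. The 6 adventitial fibroblast markers found summed to 491, 1248, 400.1 and 1455 FPKM, with 3 of 6 at least 2-fold higher in IL-10 KO (median 0.89) and 1 of 6 in Rag2 KO (median 0.08). That gene was Ly6c1, at 882 FPKM against 141 in its wild type, while Pi16 had 133 against 132 FPKM. The 9 general fibroblast markers summed to 14393, 12411, 16178 and 11570 FPKM (11569.5 before rounding), with 0 of 9 at least 2-fold apart in either knockout comparison and medians of 0.0003 and -0.05. Pan-leukocyte markers summed to 135, 257, 63.9 and 768 FPKM, with 8 of 8 at least 2-fold higher in IL-10 KO and 2 of 8 in Rag2 KO. Epithelial markers summed to 22.0, 120 (119.9 before rounding), 72.3 and 289 FPKM, with 8 of 8 higher in both comparisons. Pericyte markers summed to 87.9, 69.8, 73.6 and 50.5 FPKM, blood endothelial markers to 42.9, 44.4, 47.7 and 59.9, and lymphatic endothelial markers to 103, 59.7, 71.1 and 43.9 FPKM. Of the 5 mesothelial markers, Msln, Upk3b and Lrrn4 were below 0.4 FPKM in every library, and most of their sum (6.98, 33.6, 20.5 and 60.5 FPKM) came from Krt19 (5.76, 31.7, 19.5 and 55.6 FPKM), which is also in the epithelial list. No marker of these lists was at 0 in all 4 libraries. The part of these markers in the matrix results was not tested, and in bulk RNA fewer cells of a type cannot be told apart from less RNA per cell.

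**Figure D4:**
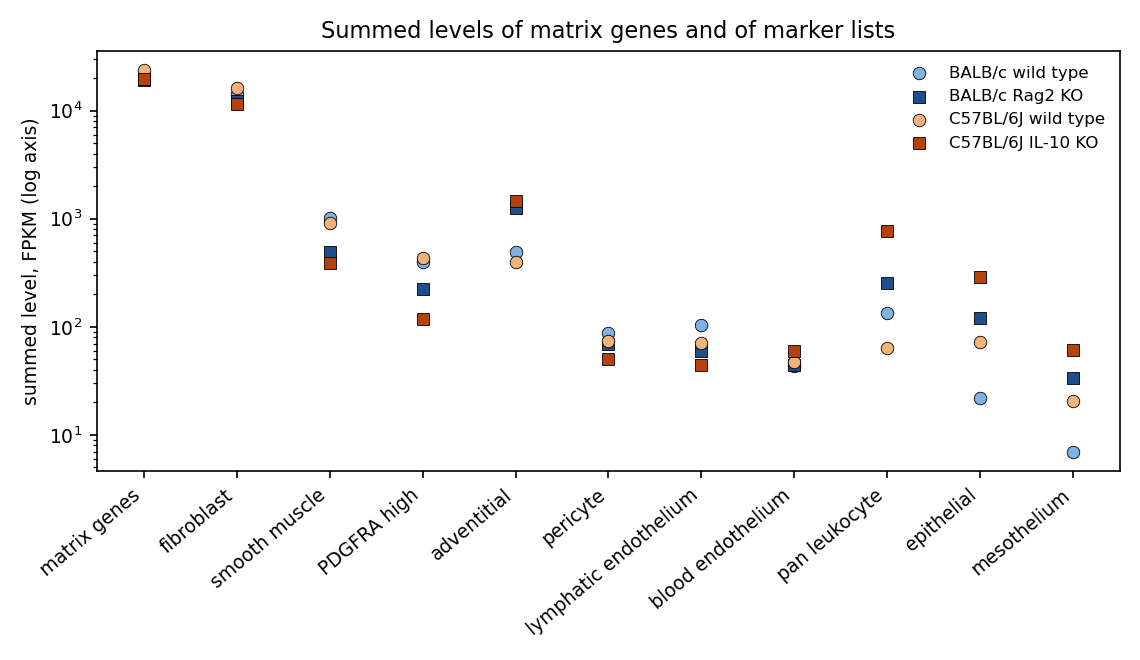
Summed FPKM (log axis) of the 33 matrix genes and of the marker lists, with 1 point per library. The matrix sum spans 19355 to 23890 FPKM, whereas smooth muscle and PDGFRA-high sums are lower and pan-leukocyte and epithelial sums higher in both knockouts than in their own wild types.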

How the data were processed

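The authors deposited 1 table per library with an FPKM value for each gene symbol. Per the submitters' processing notes, the build was mm10 and the tools included Cuffdiff 2.2.1, TopHat2 2.1.1, SAMtools 0.1.18 and Bowtie2 2.2.8, and the labels' protocols name miRNeasy extraction and a TruSeq stranded mRNA kit. Annotation, strand setting and library normalization were not given in the sources used here. FPKM were transformed as log2(FPKM + 1). A gene was compared where 1 library or both reached an FPKM of 1, and an absolute log2 ratio of at least 1 was counted as 2-fold. With 1 library per group no model was fitted. Depth was read from low FPKM of genes with 1 GENCODE transcript of at least 1000 nt: between 61.9% and 69.4% of them fell within 5% of 1 to 3 whole fragments at a length offset of 125 nt. Fragments per member were taken from its longest protein-coding transcript. Exact binomial 95% intervals of pairs cover counting error only. Small RNA rows (785 symbols) were left out of shares and ranks. The members and lists were chosen with earlier results of these data known. Every member is accounted for. Of each pathway list, up to 4 genes with an FPKM of at least 5 and the largest knockout ratio were named. The ratio code was checked on simulated data. Positions are from RefSeq in GRCm38.p6. Python 3.11.15, pandas 2.3.3, numpy 2.4.6 and scipy 1.17.1 were used.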

Additional observations from a re-analysis of the deposited data

How the results depend on the processing

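The member counts and medians of the 3 comparisons and of the knockout difference were recomputed under 7 alternatives, and with the other strain's wild type as reference, which was added after seeing the data. Of 90 such values 68 stayed within the margins (1.5 times for a count, 0.1 for a median). Part of this was fixed in advance. Every member passed each FPKM filter, so dropping or raising the filter could not move a member value. Nor could the 1.5-fold threshold move a median. With a pseudocount of 0.1, 3 members were lower in Rag2 KO. With a pseudocount of 5, 0 members were higher in IL-10 KO, 0 higher in Rag2 KO, and 0 higher and 0 lower between the wild types. Median-of-ratios scaling, whose factors lay between 0.985 (IL-10 KO) and 1.016 (Rag2 KO), hardly changed the values and gave 2 lower in Rag2 KO. Scaling to the sum without small RNA rows gave 0 higher in IL-10 KO with a median of -0.60, 0 higher and 3 lower in Rag2 KO with a median of -0.28, and 0 lower between the wild types. That scaling moved the median of all genes to -0.12 (IL-10) and -0.14 (Rag2), and 21 members (63.6%; 47.1% of all genes) were then below 0 in both knockouts. It changed the sign of members within 0.13 of 0: Thbs1 and Loxl1 (IL-10), Col1a1, Dcn and Loxl2 (Rag2), and Dcn, Ogn and Postn (wild types). At 1.5-fold, 2 members were higher in IL-10 KO (6.06%; 16.5% of all genes), 2 higher (6.06%; 10.3%) and 5 lower (15.2%; 7.65%) in Rag2 KO, 4 lower between the wild types (12.1%; 6.37%), and 3 higher (9.09%; 11.8%) and 12 lower (36.4%; 9.40%) in the knockout difference. Against the other wild type the medians were -0.17 (IL-10 KO) and -0.29 (Rag2 KO), with 0 higher (5.12% of all genes) and 3 lower (9.09%; 2.96%) in Rag2 KO. The number lower in IL-10 KO was 9 or 10 under the scalings and pseudocounts, and the filters could not change it. Of the single ratios at least 2-fold apart, 0 changed sign. A pseudocount, filter or threshold cannot change a sign, and the scalings shifted ratios too little to reverse one of that size. Only the change of reference could have done so. Over all genes, 1297 were higher and 488 lower in IL-10 KO, against 611 and 182 with a pseudocount of 5 and 1665 and 787 with 0.1. In Rag2 KO 545 were higher and 251 lower, against 278 and 68 with 5 and 780 and 532 with 0.1. Between the wild types 223 were higher and 267 lower in BALB/c, against 56 and 104 with 5 and 477 and 452 with 0.1. Scaling to the sum without small RNA rows gave 930 lower in IL-10 KO, 663 lower in Rag2 KO and 532 higher between the wild types. The sums were 384960 to 443095 and the common total was larger, so every value rose against the unchanged pseudocount and filter. The genes compared then numbered 14080 (IL-10), 13717 (Rag2) and 13716 (wild types), against 12790, 12336 and 12290. The scaling was not separated from the weaker pseudocount and filter, so these counts cannot be credited to scaling alone. No paired analysis was possible because each group has 1 library. The members' depth was ample except for Hapln1 in IL-10 KO.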

Other observations

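Some genes next to a member on its chromosome, named after their values were seen, differed as strongly, in either direction. In the IL-10 comparison most measured neighbours lay within 2-fold, as did most of all genes (10.1% higher, 3.82% lower). Higher by at least 2-fold were Tnfsf8 beside Tnc (log2 ratio 2.57) and Rasgrp1 beside Thbs1 (2.02). So were Galnt12 beside Col15a1 (1.24) and Fcnb beside Col5a1 (1.17). Apart from members, the neighbours lower by at least 2-fold were Edil3, Cd109 and Omd. Whether neighbours change together was not tested. Edil3, which encodes a secreted protein that binds integrins and lies beside Hapln1, stood at 52.1 FPKM in BALB/c wild type, 44.6 in Rag2 KO, 48.4 in C57BL/6J wild type and 8.42 in IL-10 KO, a log2 ratio of -2.39. On the other side of Hapln1 lies Vcan, whose ratio in that comparison was 0.00 (0.001 before rounding). Cd109, beside Col12a1, had 12.7, 7.25, 10.6 and 1.26 FPKM in the same order (-2.36), while Cox7a2 on the other side had 0.09. Omd, the osteomodulin gene beside Ogn, had 3.31, 0.601, 2.74 and 0.540 FPKM and was lower in both knockouts (-1.43 for Rag2, -1.28 for IL-10), whereas Nol8, on the other side of Ogn, had -0.40 and -0.16.

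Chosen after their values were seen, the hyaluronan synthase genes of the list of further matrix genes went opposite ways. Has1 stood at 621 FPKM in BALB/c wild type, 1150.5 in Rag2 KO, 599.7 in C57BL/6J wild type and 1387 in IL-10 KO. Has2 had 41.2, 26.9, 44.1 and 24.3 FPKM in the same order. Both knockouts were thus above their wild types for Has1 and below them for Has2.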
